A study of Mus musculus with 3 samples.

Results

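Interstitial macrophages made up 339 of the 31681 filtered cells in 3 single-cell libraries of macrophages sorted from mouse lung. A barcode was taken as an interstitial macrophage when it carried a unique molecular identifier (UMI, 1 captured transcript) of at least 2 of the 5 genes Folr2, Cd163, Col14a1, Gas6 and Vcam1 and at least 3 UMIs of C1qa, C1qb and C1qc together. It had also to hold at most 2 UMIs of the alveolar macrophage genes Krt79, Plet1 and Slc39a2 together, and to carry at most 1 of the dendritic cell genes Xcr1, Clec9a, Cd209a, Ccr7 and Fscn1. Barcodes were kept as filtered cells with 500 or more detected genes, a total of 1000 or more UMIs, and no more than 15% of them mitochondrial. The rule chose 67 cells in the LPS with Reg3g library, 69 in the LPS library and 203 in the PBS library.

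Interstitial macrophages lie in the lung tissue around vessels, airways and nerves, while alveolar macrophages patrol the air spaces. In mice a Lyve1-high kind with low MHC class II lies mainly along vessels, and a Lyve1-low kind with high MHC class II presents antigen to T cells. Lipopolysaccharide (LPS), a component of the outer membrane of Gram-negative bacteria, is sensed through Tlr4 and induces acute-phase proteins, cytokines and chemokines. Reg3g is a secreted C-type lectin that kills Gram-positive bacteria, and Extl3 is described as a receptor for Reg3 proteins.

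All mice were wild-type C57BL/6 animals, killed 24 h after a single instillation of 50 µL into the trachea. The LPS with Reg3g group received 4 mg/kg LPS together with 6 µg Reg3g, the LPS group received 4 mg/kg LPS, and the PBS group received phosphate-buffered saline. Lungs were digested with Liberase, and live CD45+ Ly6G- F4/80+ cells carrying CD11b or CD11c were sorted, so the cells came from a macrophage gate that removes neutrophils. Each group was 1 library, for which the cells of 3 mice were pooled. With 1 library per group no spread between replicates could be measured and no difference was tested. The intervals given are 95% exact intervals that cover counting error alone.

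The libraries held 60942042 UMIs (LPS with Reg3g), 70474636 UMIs (LPS) and 52354207 UMIs (PBS), and their filtered cells numbered 9669, 13880 and 8132 in the same order of groups. The interstitial macrophages together held 352988 UMIs in the LPS with Reg3g library, 328849 in the LPS library and 825941 in the PBS library, with medians of 4747, 3449 and 3693 UMIs per cell. A level is given below as CPM, its UMIs per 1000000 summed UMIs of these cells, so that 1 UMI was worth 2.83 CPM in the LPS with Reg3g library, 3.04 CPM in the LPS library and 1.21 CPM in the PBS library. Levels of 2 genes are not compared, since 3' counting carries no length scale. Between 24 and 33 barcodes recurred in each pair of libraries, and none of them was an interstitial macrophage in both.

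Interstitial macrophages were a smaller share of the sorted cells in both LPS groups than in the PBS group. They were 0.693% of filtered cells in the LPS with Reg3g library (interval 0.537 to 0.879), 0.497% in the LPS library (0.387 to 0.629) and 2.50% in the PBS library (2.17 to 2.86). The share in the LPS library was 5.02-fold lower than in the PBS library (3.80 to 6.70), and 9.0-fold lower (5.67 to 14.9) when at least 3 of the 5 genes were asked for. The share in the LPS with Reg3g library was 1.39 times that in the LPS library (0.981 to 1.98), an interval that includes 1. It was 2.02 times with at least 3 of the 5 genes (1.13 to 3.67), and the interval lay above 1 under 5 of the 11 other choices of cells, so whether the share differed with Reg3g depends on the rule. These shares describe the sort and the marker rule together, and a change in the cells cannot be told apart from a change in their marker genes. A change in the number of other sorted cells cannot be told apart either, since the share is taken of all filtered cells.

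**Figure D1:**
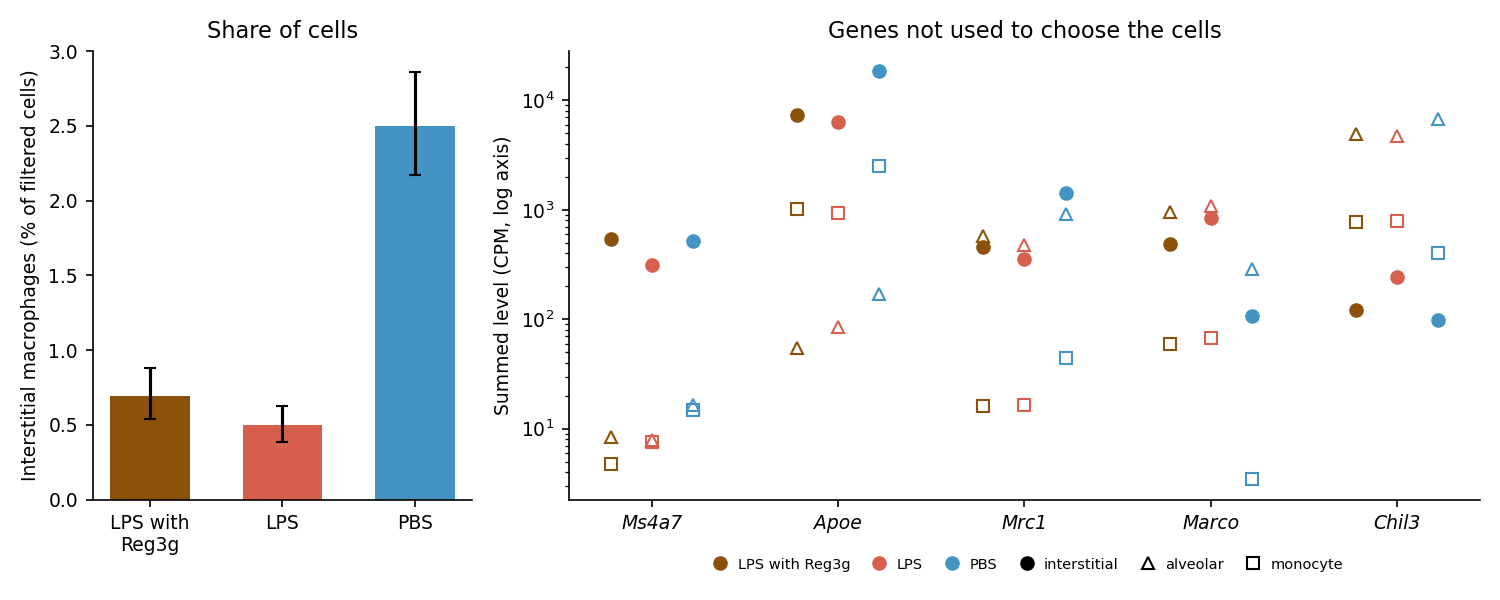
Left, share of interstitial macrophages among filtered cells (percent) in each library, with 95% exact binomial intervals of counting error; right, summed level (CPM, log axis) of 5 genes that the rule did not use in interstitial macrophages (filled circles), alveolar cells (triangles) and monocyte cells (squares) of the same library. The PBS bar stands at 2.50% and both LPS bars lie below 1%, and Ms4a7 and Apoe are highest in the interstitial macrophages of every library.

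The genes the rule used are a description of the choice. Among the 5 genes, Folr2, a folate receptor, stood at 232 CPM (LPS with Reg3g), 213 CPM (LPS) and 395 CPM (PBS), and Cd163, a haemoglobin scavenger receptor, at 442, 335 and 254 CPM. Col14a1, a fibril-associated collagen, stood at 48.2 CPM (LPS with Reg3g), 36.5 CPM (LPS) and 242 CPM (PBS). The adhesion molecule Vcam1 stood at 510, 505 and 358 CPM in the same order, and Gas6, the ligand of the receptors Mertk and Axl, at 108, 289 and 390 CPM. By cells Gas6 had another order, being carried by 41.8% of LPS with Reg3g, 29.0% of LPS and 69.5% of PBS cells. The rule therefore let cells in by partly different genes: 60 of 67 LPS with Reg3g cells, 62 of 69 LPS cells and 151 of 203 PBS cells carried Folr2 or Cd163, and 4, 5 and 43 entered with Col14a1 and neither of these. The C1q genes, which encode the first component of the classical complement pathway, had summed medians of 88, 56 and 54 UMIs per cell against a threshold of 3.

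Genes outside the rule went with the label. Ms4a7, a marker of interstitial over alveolar macrophages, stood at 547 CPM in interstitial macrophages of the LPS with Reg3g library, 310 CPM in the LPS library and 518 CPM in the PBS library. In alveolar cells, chosen by at least 3 UMIs of Krt79, Plet1 and Slc39a2, it stood between 7.83 and 16.4 CPM in the 3 libraries. In monocyte cells, chosen by at least 2 of Ly6c2, Ccr2, Ace and Treml4, it stood between 4.80 and 14.7 CPM. Apoe, the lipid-carrying apolipoprotein, stood at 7284, 6289 and 18512 CPM in interstitial macrophages (LPS with Reg3g, LPS, PBS), at 54.5, 84.5 and 171 CPM in alveolar cells, and at 1015, 929 and 2500 CPM in monocyte cells. Ms4a7 and Apoe were thus higher in the interstitial macrophages of each library than in either comparison population. Just outside the rule, cells that carried 1 of the 5 genes and met its other conditions numbered 121 (LPS with Reg3g), 161 (LPS) and 157 (PBS) and held Ms4a7 at 111, 144 and 420 CPM. Just inside it, cells with exactly 2 of the genes held Ms4a7 at 492, 345 and 527 CPM.

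Summed markers of monocytes, alveolar macrophages, dendritic cells, neutrophils and T and NK cells were lower than in the cells they mark, but not absent. The 10 genes of the classical monocyte list summed to 501 CPM (LPS with Reg3g), 894 CPM (LPS) and 335 CPM (PBS) in interstitial macrophages, against 3570, 3989 and 3643 CPM in monocyte cells. The 10 nonclassical monocyte genes summed to 363, 602 and 431 CPM, against 2075, 1436 and 2388 CPM in monocyte cells. The 13 genes of the alveolar macrophage list that the rule did not use summed to 714, 1262 and 404 CPM, with Siglecf at 0 in both LPS libraries, against 11141, 11060 and 15391 CPM in alveolar cells. The 7 dendritic cell genes that the rule did not use summed to 314, 289 and 626 CPM, against 2969, 2688 and 3684 CPM in dendritic cells. Fscn1, a dendritic gene of the rule, stood at 167, 106 and 88.4 CPM. It was carried by 34 of 67 LPS with Reg3g, 24 of 69 LPS and 44 of 203 PBS members. The 12 neutrophil genes summed to 1561, 912 and 249 CPM, with Ly6g at 0 in all 3 libraries. The 12 T and NK cell genes summed to 34.0, 60.8 and 235 CPM, against 6142, 6610 and 3879 CPM in lymphoid cells. Lymphoid cells were chosen by at least 3 genes of T, NK and B cells, and 0, 0 and 6 members carried that many. Members with at least 2 monocyte genes numbered 4, 9 and 9, and Scrublet scores marked 1, 1 and 4 members as likely doublets, which were kept. The part of these cells or of free RNA in the results was not tested.

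A pair of cells in the LPS library stood apart. These 2 cells, with 19348 and 28080 UMIs, carried genes of fibroblasts and mesothelium such as Dcn, a small proteoglycan of matrix, and Msln, mesothelin, and held 318 UMIs of the fibroblast and mesothelial list, against 3 in the other 67 LPS cells. That list summed to 17.0 CPM (LPS with Reg3g), 976 CPM (LPS) and 29.1 CPM (PBS). The 2 cells held 14.4% of the UMIs of the LPS interstitial macrophages, so values that rest on them are also given without them; leaving them out raises the CPM of genes they lack by a factor of 1.17. The pair was picked out after the data had been seen. Members over 10000 UMIs numbered 4 (LPS with Reg3g), 5 (LPS) and 4 (PBS). They held 16.3%, 29.6% and 6.67% of the UMIs of the interstitial macrophages of their library.

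After LPS these cells held much less MHC class II transcript and less transcript of most measured Lyve1-type list genes. They held more transcript of Saa3, Lcn2 and most measured interferon-response and glycolysis genes. Transcripts of Saa3 stood at 18884 CPM in LPS cells and were nearly absent in PBS cells, while H2-Aa was 20.7-fold lower in LPS cells than in PBS cells. Of 3724 genes that reached 50 CPM in LPS or PBS cells, 617 (16.6%) were at least 2-fold higher in LPS cells and 614 (16.5%) at least 2-fold lower. Without the 2 cells that carry structural genes, 524 of 3609 genes (14.5%) were higher and 611 (16.9%) lower. The median log2 ratio (LPS over PBS) over all measured genes was 0.03. The list counts given below for LPS over PBS stand beside the shares of 16.6% and 16.5%. Of the 12 genes with the highest ratios, 10 drew at least 93.0% of their LPS UMIs from those 2 cells, whereas none of the 12 with the lowest ratios did so.

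The MHC class II and co-stimulation list had the lowest median of the lists with at least 3 measured genes. H2-Aa, which encodes an alpha chain that binds peptide, stood at 807 CPM in LPS with Reg3g cells, 435 CPM in LPS cells and 8996 CPM in PBS cells. Its beta-chain partners H2-Ab1 and H2-Eb1 stood at 575, 359 and 5401 CPM and at 756, 468 and 7105 CPM, and Cd74, the invariant chain that escorts them, at 1864, 1271 and 11720 CPM. The PBS library was highest and the LPS library lowest for each of these genes. The log2 ratio of LPS over PBS was -4.37 for H2-Aa (interval -4.62 to -4.13), -3.92 for H2-Eb1, -3.91 for H2-Ab1 and -3.20 for Cd74. In alveolar cells of the same libraries the ratios were -0.97 for H2-Aa and 0.19 for H2-Ab1, and in monocyte cells they were -2.56 and -2.35. Of the 10 measured genes of the MHC class II and co-stimulation list, 7 were at least 2-fold lower and 1, the checkpoint ligand Cd274, at least 2-fold higher. The lower ones included H2-DMa and H2-DMb1, which load peptide, at -3.36 and -2.57, and Ciita, the master activator of class II genes. The list's median was -3.04, against -0.81 for the same genes in alveolar cells and -1.79 in monocyte cells.

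The difference was spread over cells. H2-Aa, H2-Ab1, H2-Eb1 and Cd74 together took a median of 0.266% of a cell's UMIs in the LPS with Reg3g library, 0.218% in the LPS library and 3.12% in the PBS library. The upper quartiles of the LPS with Reg3g and LPS cells, 0.494% and 0.459%, lay below the lower quartile of the PBS cells, 1.32%. The ranges still overlapped, since single LPS with Reg3g and LPS cells reached 4.30% and 4.05% while 5 PBS cells had no UMI of these genes.

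**Figure D2:**
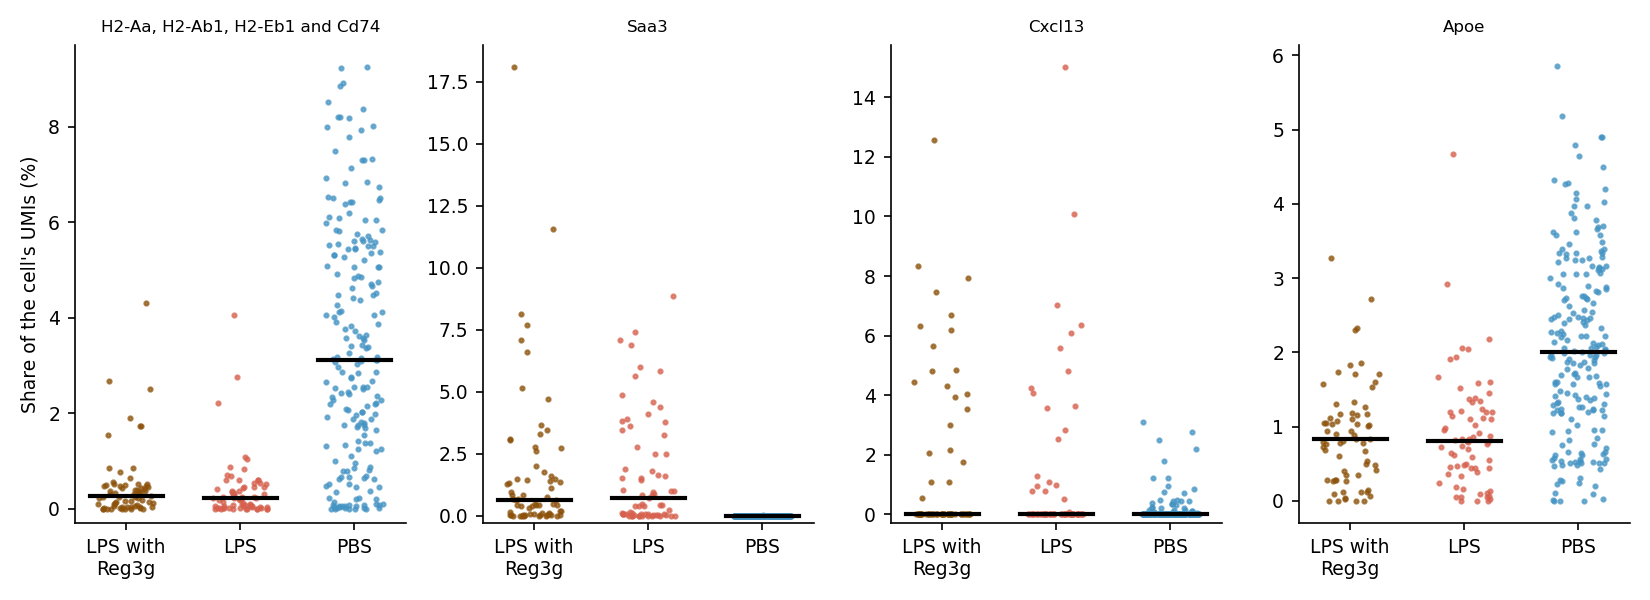
Share of each interstitial macrophage's UMIs (percent, 1 point per cell, bar at the median) taken by the 4 class II genes, Saa3, Cxcl13 and Apoe, in LPS with Reg3g, LPS and PBS cells; each panel has its own axis. Class II has a median of 3.12% in PBS cells and under 0.3% in both LPS groups, Saa3 is at 0 in all but 1 PBS cell, and most cells of every library have no Cxcl13.

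The promoters of H2-Aa and H2-Eb1 are shown because class II genes share a promoter module that is read together. Each line gives the 200 bases before the RefSeq start of the gene in build GRCm38.p6, 5' to 3' on the gene's strand, from chr17:34287824-34288023 (minus strand) for H2-Aa and chr17:34305667-34305866 (plus strand) for H2-Eb1. Capitals mark CTGATTGG, the core of the Y box that binds NF-Y, which begins 51 bases before the start in H2-Aa and 62 bases before it in H2-Eb1. On either strand this motif occurred in 1164 of 32851 RefSeq promoters of this length (3.54%), and its complement holds CCAAT, another motif searched.
H2-Aa: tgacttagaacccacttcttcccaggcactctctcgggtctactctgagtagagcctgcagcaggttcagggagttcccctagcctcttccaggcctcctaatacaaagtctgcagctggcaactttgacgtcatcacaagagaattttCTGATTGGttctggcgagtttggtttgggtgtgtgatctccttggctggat
H2-Eb1: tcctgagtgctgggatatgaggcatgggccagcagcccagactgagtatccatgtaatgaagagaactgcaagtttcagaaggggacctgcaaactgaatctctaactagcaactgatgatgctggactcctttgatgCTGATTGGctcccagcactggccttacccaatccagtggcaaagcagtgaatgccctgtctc

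Other genes of the class II and Cx3cr1 kind of interstitial macrophage were lower too. All but 1 of the 12 measured genes of that list were at least 2-fold lower in LPS cells than in PBS cells, with a median of -2.87. Cx3cr1, the receptor for fractalkine, stood at 170 CPM (LPS with Reg3g), 125 CPM (LPS) and 707 CPM (PBS), a log2 ratio of -2.50 for LPS over PBS. The list shares the class II genes with the one above, so these counts are not separate evidence.

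MHC class I presentation genes went the other way. Of 12 measured genes of that list, 4 were at least 2-fold higher in LPS cells than in PBS cells and none lower, with a median of 0.76 against 0.92 for the same genes in alveolar cells and 0.16 in monocyte cells. Over all measured genes 16.6% were higher and 16.5% lower. Psme2, a subunit of the proteasome activator PA28, stood at 229 CPM in LPS with Reg3g cells, 231 CPM in LPS cells and 84.8 CPM in PBS cells (1.45 for LPS over PBS). Tap1, which carries peptides into the endoplasmic reticulum, stood at 127, 161 and 69.0 CPM (1.22, and under 2-fold in 1 of 13 other settings). The other two were H2-Q6 and H2-Q7, close paralogs whose reads may be split between them.

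Most measured genes of the Lyve1-type list, which also holds genes of resident macrophages, were lower in LPS cells as well. Of 16 measured genes of the Lyve1-type list, 10 were at least 2-fold lower and none 2-fold higher, with a median of -1.44. Lyve1 itself was not among the 10. It had 53 UMIs in LPS with Reg3g cells, 27 in LPS cells and 93 in PBS cells, where 1 UMI was worth 2.83, 3.04 and 1.21 CPM. On the CPM scale it was highest in LPS with Reg3g cells, and in LPS cells less than 2-fold below PBS cells. Another 2 of the 16, Fcna and Cd209f, were higher in LPS cells by less than 2-fold, with 97.9% and 53.2% of their LPS UMIs in 1 cell each. By cells both were rarer after LPS. Fcna was found in 2.90% of LPS and 9.36% of PBS cells, and Cd209f in 5.80% and 10.3%. Mgl2, a galactose-binding lectin, stood at 28.3 CPM in LPS with Reg3g cells, 30.4 CPM in LPS cells and 645 CPM in PBS cells, a log2 ratio of -4.41 (-5.48 to -3.52) for LPS over PBS. Selenop, the secreted selenium carrier, stood at 436, 268 and 2348 CPM in the same order (-3.13, interval -3.46 to -2.82), and the growth factor Igf1 at 53.8, 48.7 and 317 CPM (-2.70). For Mgl2, Selenop and Igf1 the values of both LPS libraries lay far below the PBS value. Mrc1, the mannose receptor, stood at 456, 359 and 1430 CPM, and the platelet-factor chemokine Pf4 at 1150, 931 and 2579 CPM. Pf4 was lower in LPS than PBS interstitial macrophages (-1.47) but higher in alveolar cells (2.19), where its level was only 77.1 CPM (LPS with Reg3g), 75.2 CPM (LPS) and 16.5 CPM (PBS). Apoe had a log2 ratio of -1.56 (-1.62 to -1.49) for LPS over PBS, close to the -1.43 of monocyte cells.

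Gpr34, Hpgd, Pla2g2d and Igfbp4 were among the 12 lowest ratios. Gpr34, a lysophosphatidylserine receptor, had 2 UMIs in LPS with Reg3g cells, 1 UMI in LPS cells and 131 UMIs in PBS cells, a log2 ratio of -5.70 (-11.02 to -3.20) for LPS over PBS. Hpgd, which degrades prostaglandins, stood at 48.2, 33.5 and 400 CPM (-3.58), and Pla2g2d, a secreted phospholipase, had 3, 4 and 116 UMIs (-3.53). Igfbp4, which binds insulin-like growth factors, stood at 96.3 CPM (LPS with Reg3g), 30.4 CPM (LPS) and 345 CPM (PBS), a ratio of -3.50. The growth factors and matrix list went both ways, with 5 of its 16 measured genes at least 2-fold higher, 6 lower and a median of -0.08. Among all measured genes 16.6% were higher and 16.5% lower.

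Transcription factors and receptors that maintain macrophages were mostly lower too. Of 19 measured transcription factors of macrophage identity, 10 were at least 2-fold lower in LPS cells than in PBS cells and 3 higher, with a median of -1.10. For the same genes the median was -0.94 in alveolar cells and -0.60 in monocyte cells. In interstitial macrophages it was -0.85 without the 2 cells that carry structural genes, and under 2-fold in 6 of 15 other settings. Klf4 stood at 156 CPM (LPS with Reg3g), 192 CPM (LPS) and 915 CPM (PBS), and Maf, which helps keep macrophages differentiated, at 436, 213 and 775 CPM. Maf had a ratio of -1.86 for LPS over PBS. Csf1r, the receptor for the macrophage growth factor Csf1, stood at 405, 347 and 1131 CPM, a ratio of -1.71 (-2.00 to -1.42) in interstitial macrophages against 1.20 in alveolar cells. The 3 higher factors were Nr1h3 (LXR alpha, a sterol sensor), Cebpb and Id3. Id3 stood at 122 CPM in LPS with Reg3g cells, 341 CPM in LPS cells and 75.1 CPM in PBS cells, and its ratio of 2.18 (1.72 to 2.65) for LPS over PBS stood beside -1.45 in alveolar cells and -0.25 in monocyte cells. The immediate early and dissociation list, which responds to tissue digestion, had 8 of 19 genes at least 2-fold lower in LPS cells and none higher. It included Jun (-1.48), the heat-shock gene Hspa1a (-1.90) and Egr1, which is also 1 of the 10 lower factors of macrophage identity. The part of this list in the other differences was not tested.

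The acute-phase gene Saa3, an apolipoprotein made under inflammation, stood at 18171 CPM in LPS with Reg3g cells, 18884 CPM in LPS cells and 2.42 CPM in PBS cells. The PBS level was 2 UMIs, both in 1 cell, and the log2 ratio of LPS over PBS was 12.93 (11.08 to 15.98). Saa3 was at 0 in 6 of 67 LPS with Reg3g cells, 11 of 69 LPS cells and 202 of 203 PBS cells. After each cell was thinned to 2000 UMIs it was found in 83.9%, 82.5% and 0.585% of interstitial macrophages, and in 44.4%, 43.2% and 0% of lymphoid cells, which should lack it. The lymphoid level was 1269 CPM (LPS with Reg3g) and 1005 CPM (LPS), far below the level in interstitial macrophages of the same libraries. Lcn2, the iron-siderophore binding protein lipocalin 2, stood at 972 and 1645 CPM in the LPS with Reg3g and LPS cells and at 0 in PBS cells, which makes it at least 453-fold higher in LPS cells against a floor of 3 counts per library.

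Cxcl13, which draws B cells through Cxcr5, was concentrated in a minority of cells. It stood at 15581 CPM in LPS with Reg3g cells, 10409 CPM in LPS cells and 1226 CPM in PBS cells, a log2 ratio of 3.09 (2.98 to 3.19) for LPS over PBS and of 3.31 without the 2 cells that carry structural genes. Most cells of every library had no Cxcl13 UMI: 44 of 67 LPS with Reg3g cells, 46 of 69 LPS cells and 163 of 203 PBS cells. Cells with at least 10 Cxcl13 UMIs numbered 22 (32.8%) in the LPS with Reg3g library, 19 (27.5%) in the LPS library and 21 (10.3%) in the PBS library. Those cells held 99.98%, 99.7% and 93.9% of the Cxcl13 UMIs, and the single highest cells gave 12.6%, 15.0% and 3.11% of their own UMIs to the gene. Cxcl13 stood at only 24.2 CPM in alveolar cells and 43.9 CPM in monocyte cells of the LPS library.

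Saa3 and Cxcl13 are shown as genes that were higher in LPS cells and passed 10000 CPM there. Their lines give the same window of 200 bases, from chr7:46715677-46715876 (minus strand) for Saa3 and chr5:95956739-95956938 (plus strand) for Cxcl13, in GRCm38.p6. Capitals mark TTGCNNAAT, a C/EBP-type motif, here on the opposite strand, whose bases begin 100 bases before the start in Saa3 and 165 bases before it in Cxcl13. It occurred on either strand in 537 of 32851 promoters (1.63%). The 6 motifs searched on both strands of the 4 promoters were CTGATTGG, TTGCNNAAT, TGACGTCA (a CRE), TTNNGAAA (a short interferon-response element), CCAAT and an NF-kB half-site pair of GGG and CC set 5 bases apart, and the 2 in capitals were picked after their matches were seen. The others were found in 41.4% (the NF-kB pair), 1.47% (TGACGTCA), 11.8% (TTNNGAAA) and 29.3% (CCAAT) of promoters. The NF-kB pair was found in H2-Aa, H2-Eb1 and Cxcl13, TGACGTCA in H2-Aa, TTNNGAAA in H2-Eb1 and Saa3, and CCAAT in H2-Aa and H2-Eb1. A match describes letters in the window and not a site in use.
Saa3: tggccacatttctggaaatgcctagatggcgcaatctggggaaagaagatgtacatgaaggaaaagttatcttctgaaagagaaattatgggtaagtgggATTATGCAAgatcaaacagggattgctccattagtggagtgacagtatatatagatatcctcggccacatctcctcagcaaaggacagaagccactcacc
Cxcl13: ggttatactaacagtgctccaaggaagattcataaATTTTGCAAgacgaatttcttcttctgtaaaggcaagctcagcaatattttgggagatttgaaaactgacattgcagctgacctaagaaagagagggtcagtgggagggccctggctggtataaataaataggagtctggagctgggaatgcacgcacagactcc

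Chemokines for neutrophils and lymphocytes were mostly higher in LPS cells than in PBS cells, while those for monocytes and macrophages went both ways. Of 8 measured chemokines for neutrophils and lymphocytes, 6 were at least 2-fold higher and 1, Pf4, lower, with a median of 1.45 against 3.56 for the same genes in alveolar cells and 3.41 in monocyte cells. Cxcl10, which draws T cells through Cxcr3, stood at 632 CPM in LPS with Reg3g cells, 429 CPM in LPS cells and 138 CPM in PBS cells (1.64 for LPS over PBS). Cxcl1, a neutrophil attractant, stood at 207, 432 and 149 CPM (1.54). Of 10 measured monocyte-attracting and macrophage chemokines, 2 were higher and 2 lower, close to the 16.6% and 16.5% of all measured genes. The higher ones were Ccl12, a ligand of Ccr2, at 2128, 1092 and 463 CPM (1.24), and Ccl5, which draws T cells and monocytes, at 2419, 1606 and 42.4 CPM (5.24). Ccl5 stood at 8032 CPM in dendritic cells of the LPS library, and the part of carry-over in its level was not tested. The lower ones were Ccl24, an eosinophil attractant (-2.54), and Ccl8, another CC chemokine, which stood at 309 CPM (LPS with Reg3g), 69.9 CPM (LPS) and 349 CPM (PBS), a ratio of -2.32 (-3.00 to -1.70).

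Of 10 measured cytokines and their brakes, 6 were at least 2-fold higher in LPS cells and none lower, with a median of 1.61. Csf3, the granulocyte growth factor, had 34 UMIs in LPS with Reg3g cells, 37 in LPS cells and 1 in PBS cells, a ratio of 6.54 (3.97 to 11.88) for LPS over PBS. Il1b, a fever-inducing cytokine, stood at 680, 1365 and 320 CPM (2.09), but at 9141 CPM in neutrophil cells of the LPS library. Il10, an anti-inflammatory cytokine, stood at 90.7, 207 and 149 CPM (0.47). The neutrophil proteins S100a8 and S100a9 had ratios of 6.28 and 5.96, and they are themselves among the genes of the neutrophil sums given above. The part of neutrophil RNA in them was not tested.

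The NF-kB and LPS-inducible list had 25 measured genes, of which 11 stood at 2-fold or more above PBS cells in LPS cells and none at 2-fold below, with a median of 0.54 against 1.89 in alveolar cells and 1.31 in monocyte cells. Clec4e, a receptor for mycobacterial glycolipid, stood at 252 CPM (LPS with Reg3g), 307 CPM (LPS) and 14.5 CPM (PBS), 21.1-fold higher in LPS than in PBS cells. Sod2, the mitochondrial superoxide dismutase, stood at 1244, 1289 and 98.1 CPM (3.72). Of 15 measured interferon-response genes, 11 were higher and 1, the transcription factor Irf8, lower, with a median of 1.62 against 2.98 in alveolar cells and 0.22 in monocyte cells. Irf7, which amplifies the type I interferon response, stood at 178 CPM (LPS with Reg3g), 219 CPM (LPS) and 23 CPM (PBS), a ratio of 3.25 (2.51 to 4.06).

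Scavenger, lipid, heme and glycolysis genes moved in different directions. Hmox1, which breaks down heme, stood at 4017 CPM in LPS with Reg3g cells, 3640 CPM in LPS cells and 519 CPM in PBS cells, a ratio of 2.81 (2.65 to 2.97) for LPS over PBS. Of 16 measured efferocytosis and scavenger receptors, 7 were at least 2-fold lower and 2, Marco and Msr1, higher. Msr1, which takes up modified lipoprotein, stood at 402, 338 and 77.5 CPM (2.12), against -0.04 in alveolar cells. Marco, a bacterial scavenger receptor of alveolar macrophages, stood at 484, 845 and 107 CPM, but 1 LPS cell gave 75.5% of its UMIs. Cd36, a receptor for fatty acids and apoptotic cells, was among the 7 lower ones at 161, 66.9 and 269 CPM (-2.01). Of 16 measured lipid-handling genes, 4 were higher and 4 lower. For these lists the shares over all measured genes were 16.6% higher and 16.5% lower. Nr1h3 stood at 201, 164 and 12.1 CPM (3.76), while the cholesterol exporter Abca1 was lower (-1.60). Of 12 measured glycolysis and hypoxia genes, 7 were at least 2-fold higher and none lower, with a median of 1.44 against 0.61 in alveolar cells and 0.87 in monocyte cells. Pkm, pyruvate kinase, stood at 654, 818 and 143 CPM (2.52, interval 2.20 to 2.84), and Gapdh had a ratio of 1.75.

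The complement list shows what the 2 cells that carry structural genes can do. Its 11 measured genes held 6 that stood 2-fold or more above PBS cells in LPS cells and 1 that stood 2-fold below; without these cells the counts were 2 and 1 of 8. C3, the central complement protein, stood at 405 CPM in LPS with Reg3g cells, 1353 CPM in LPS cells and 222 CPM in PBS cells, with a ratio of 2.61 for LPS over PBS that became 0.86 without them. Igfbp6, a binding protein made by mesothelium and fibroblasts, stood at 11.3, 587 and 1.21 CPM, and its ratio of 8.92 became 1.55 (-4.74 to 7.85).

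**Figure D3:**
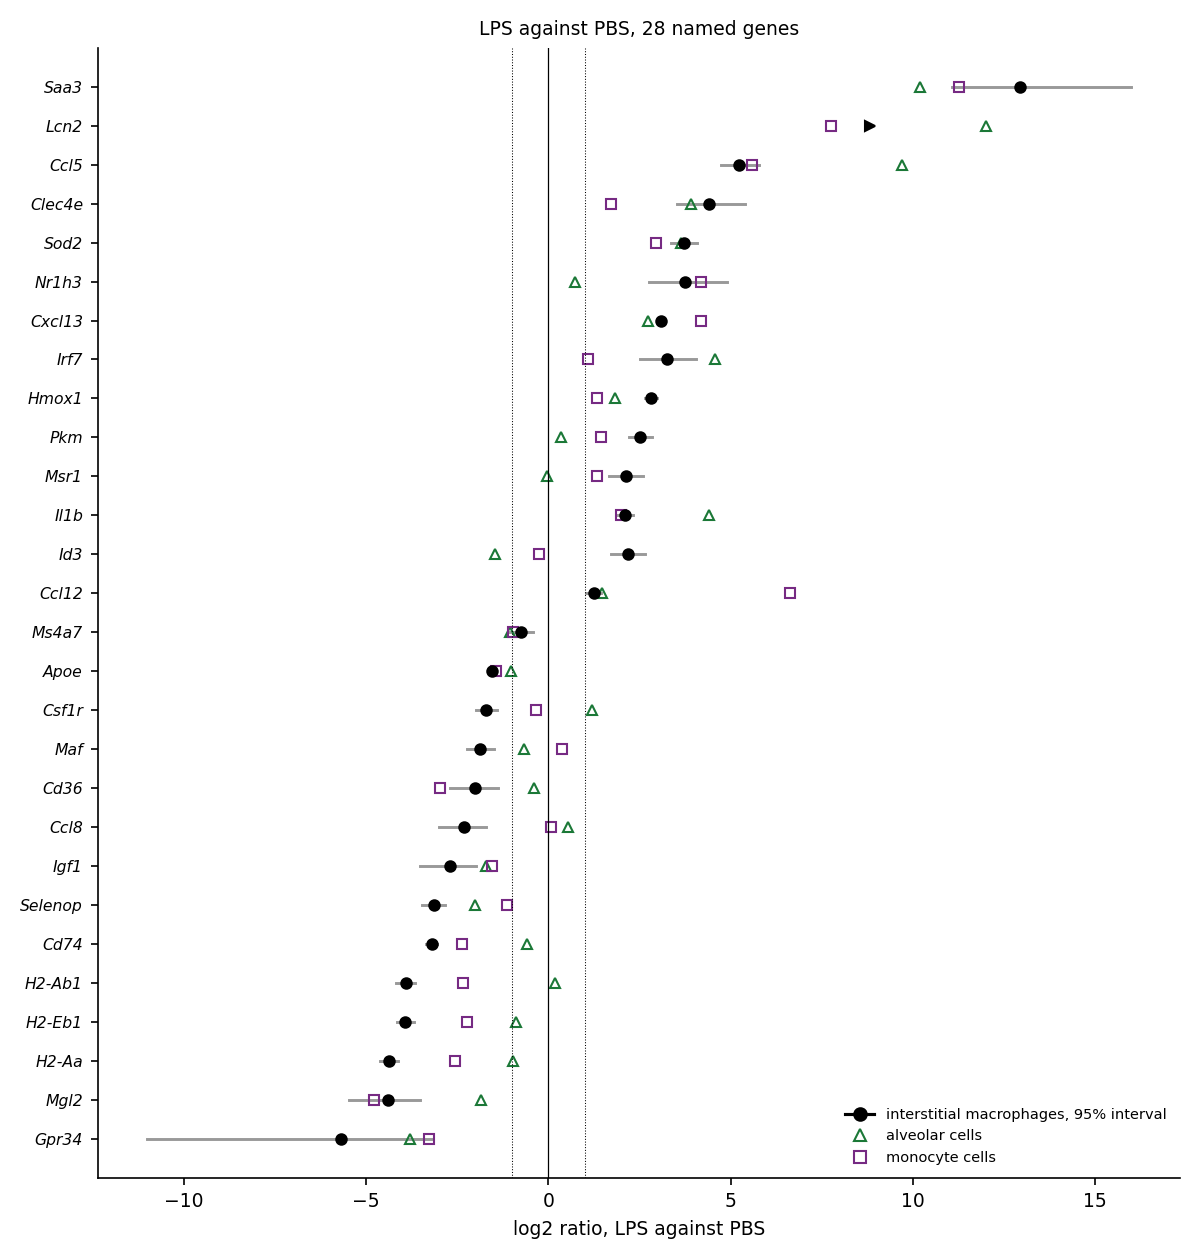
Log2 ratio of LPS over PBS for genes named in the text, in interstitial macrophages (black circles with 95% intervals of counting error; the triangle pointing right is the bound for Lcn2), alveolar cells (open triangles) and monocyte cells (open squares); dotted lines mark 2-fold. H2-Aa, H2-Ab1 and H2-Eb1 lie near -4 in interstitial macrophages and near -1 or above in alveolar cells, and Csf1r and Id3 lie on opposite sides of 0 in these populations.

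Fewer genes were 2-fold apart between LPS with Reg3g and LPS cells than between LPS and PBS cells. Ccl8 was at least 2-fold higher with Reg3g, while Ly6c2, Malt1 and Il10 were at least 2-fold lower, and Saa3 and Hmox1 were close to equal. Maf, Il1b and Cxcl1 lay just beyond 2-fold and were under it in 9, 8 and 3 of 13 other settings. Among 3374 measured genes, 95 (2.82%) were at least 2-fold higher in LPS with Reg3g cells than in LPS cells and 234 (6.94%) at least 2-fold lower. Without the 2 LPS cells that carry structural genes, 88 of 3264 (2.70%) were higher and 150 (4.60%) lower. The gap to the other comparison was small after thinning to 2000 UMIs, which left 36 cells and 72000 UMIs in each LPS library. The counts were then 649 higher and 685 lower with Reg3g, beside 862 higher and 754 lower for LPS over PBS. Each of the 12 lowest ratios drew at least 58.5% of its LPS UMIs from those cells. Serping1, a complement inhibitor, and Sparc, a matrix glycoprotein, for instance had ratios of -6.27 and -5.04 that both became -0.33 without them, and Igfbp6 had one of -5.69 that became 1.67 (-1.66 to 7.30). The comparison shares the LPS library with that of LPS over PBS, so a chance high or low value there moves both ratios in opposite directions.

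Ccl8 had the highest ratio with Reg3g among the named genes that had UMIs in both libraries, and it did not rest on the 2 cells. Its log2 ratio of LPS with Reg3g over LPS was 2.14 (1.48 to 2.86), and 1.92 without the 2 cells. It was found in several cells, with the highest giving 17.4% of the UMIs in both libraries. In alveolar cells the ratio was -2.07 and in monocyte cells -3.73, where Ccl8 stood at no more than 2.07 CPM. Ccl7 stood at 2558 CPM in LPS with Reg3g cells, 1314 CPM in LPS cells and 748 CPM in PBS cells, and Ccl2 at 1210, 800 and 602 CPM. The ratios of LPS with Reg3g over LPS were 0.96 for Ccl12, 0.96 for Ccl7 and 0.60 for Ccl2, all below 2-fold; in monocyte cells the ratio of Ccl12 was -1.17 and that of Ccl2 -0.25. Ccl2, Ccl7 and Ccl12 together took a median of 0.420% of a cell's UMIs in the LPS with Reg3g library, 0.192% in the LPS library and 0.0751% in the PBS library. One of the 9 measured monocyte-attracting and macrophage chemokines, Ccl8, was at least 2-fold higher and none lower, with a median of 0.59, which was 0.37 without the 2 cells. Over all measured genes 2.82% were higher and 6.94% lower.

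Other genes at least 2-fold higher with Reg3g were of varied function. Cited2, a transcriptional coregulator, stood at 252 CPM in LPS with Reg3g cells, 66.9 CPM in LPS cells and 275 CPM in PBS cells, a ratio of 1.91 (1.23 to 2.66) for LPS with Reg3g over LPS. Rab3il1, an exchange factor for Rab proteins, stood at 105, 33.5 and 105 CPM (1.65), Syncrip, an RNA-binding protein, at 150, 48.7 and 95.6 CPM (1.63), and Cd36 had a ratio of 1.27 (0.54 to 2.05). Maf and the lysosomal lipase Lipa had ratios of 1.04 and 1.18, which became 0.85 and 0.95 without the 2 cells and were then under 2-fold. Ccl8, Cited2, Rab3il1 and Syncrip were at least 2-fold higher under each of the 13 other settings tried, while Cd36 was under 2-fold in 3 of them. For Ccl8, Cited2, Cd36 and Maf the level in LPS with Reg3g cells lay between those of LPS and PBS cells.

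Class II transcripts remained far below the PBS level. H2-Aa, H2-Eb1, H2-Ab1 and Cd74 had log2 ratios of LPS with Reg3g over LPS of 0.89, 0.69, 0.68 and 0.55 in interstitial macrophages. They were 0.67, 0.49, 0.46 and 0.34 without the 2 cells, and that of Cd74 was -0.08 after thinning. In alveolar cells the same genes had ratios of -0.94, -1.38, -0.49 and -0.78, and in monocyte cells -0.52, -0.76, -0.64 and -0.50. None of the 8 measured genes of the MHC class II and co-stimulation list was 2-fold apart, with a median of 0.41, or 0.20 without the 2 cells. Dendritic cells held H2-Aa at 4013 CPM (LPS with Reg3g) and 3813 CPM (LPS), and the part of their RNA in these ratios was not tested.

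Inflammatory genes that were lower with Reg3g formed part of the lists. The NF-kB and LPS-inducible list had 4 of its 25 measured genes 2-fold or more lower and none higher, beside 6.94% lower and 2.82% higher over all measured genes, with a median of -0.38. These were Malt1 (-1.53) and Traf1 (-1.28), adaptors of NF-kB signalling, Tnfaip2 (-1.25) and the stress gene Gadd45b (-1.23). Traf1 was under 2-fold in 2 of the 13 other settings, Gadd45b in 4, Tnfaip2 in 1 and Malt1 in none. Traf1 stood at 855 CPM in dendritic cells of the LPS library against 65.2 CPM in LPS with Reg3g and 158 CPM in LPS interstitial macrophages. Of 10 measured cytokines and their brakes, 3 were at least 2-fold lower and none higher. Il1b had a ratio of -1.01 (-1.24 to -0.78) and Il10 one of -1.19, both larger without the 2 cells, at -1.10 and -1.41. For Il10, 1 cell gave 33.8% of the LPS UMIs, and the ratio was -0.85 in 1 of the 13 other settings. Cxcl1 had a ratio of -1.06. Id3 had one of -1.48, which was -0.60 without members over 10000 UMIs. Klf2, a flow-responsive factor that restrains inflammation, stood at 306 CPM (LPS with Reg3g), 763 CPM (LPS) and 1269 CPM (PBS), a ratio of -1.32.

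Some monocyte genes were lower with Reg3g as well. Ly6c2, a surface protein of classical monocytes, stood at 39.7 CPM in LPS with Reg3g cells, 213 CPM in LPS cells and 47.2 CPM in PBS cells, a ratio of -2.42 (-3.37 to -1.58) for LPS with Reg3g over LPS. Its ratio was -0.63 in monocyte cells, which were chosen in part by Ly6c2. The classical monocyte list had 1 of 5 measured genes, Ly6c2, at least 2-fold lower and none higher, and 3 of the 5 were marked as possible carry-over. The nonclassical list had 2 of 4 measured genes, Treml4 and Itgal, at least 2-fold lower and none higher. Over all measured genes the shares were 6.94% lower and 2.82% higher. Leaving out the 4 LPS with Reg3g, 9 LPS and 9 PBS members with at least 2 monocyte genes took away many UMIs. The summed UMIs fell from 352988 to 299609 (LPS with Reg3g), from 328849 to 213996 (LPS) and from 825941 to 768700 (PBS). Without these members the ratios were -1.55 for Il10 and -1.29 for Malt1, still beyond 2-fold. They were -0.66 for Il1b, -0.62 for Traf1 and -0.91 for Gadd45b, all then under 2-fold, and 0.59 for H2-Aa. Some lower genes rested on few cells: Cd209f, a lectin, stood at 11.3, 143 and 95.6 CPM with 53.2% of its LPS UMIs in 1 cell, and Fcna, a ficolin, had a ratio of -1.88 with 97.9% of its LPS UMIs in 1 cell.

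Several genes far higher in LPS than PBS cells were under 2-fold apart with Reg3g. Saa3 had a ratio of -0.06 (-0.11 to -0.00), Hmox1 0.14 and Cxcl13 0.58 (0.52 to 0.64), the last being 0.36 without the 2 cells, -0.12 after thinning, and resting on the 22 and 19 cells described above. Ccl5 had one of 0.59. Lcn2 had one of -0.76, with 39.6% of its LPS UMIs in 1 cell; it ranged from -1.24 to 1.07 over the 13 other settings and was above 0 in 5 of them, so no direction is given. Reg3g itself had 1 UMI in LPS with Reg3g cells, none in LPS cells and 2 in PBS cells, levels too low for a ratio. Extl3 had 9, 10 and 47 UMIs, or 25.5, 30.4 and 56.9 CPM, with ratios of -0.25 (-1.73 to 1.20) for LPS with Reg3g over LPS and -0.90 (-2.05 to 0.10) for LPS over PBS; neither difference was detectable at this depth. Of the 8 measured genes of the Extl3, gp130 and Stat3 list, 1 was at least 2-fold lower with Reg3g, beside 6.94% of all measured genes.

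**Figure D4:**
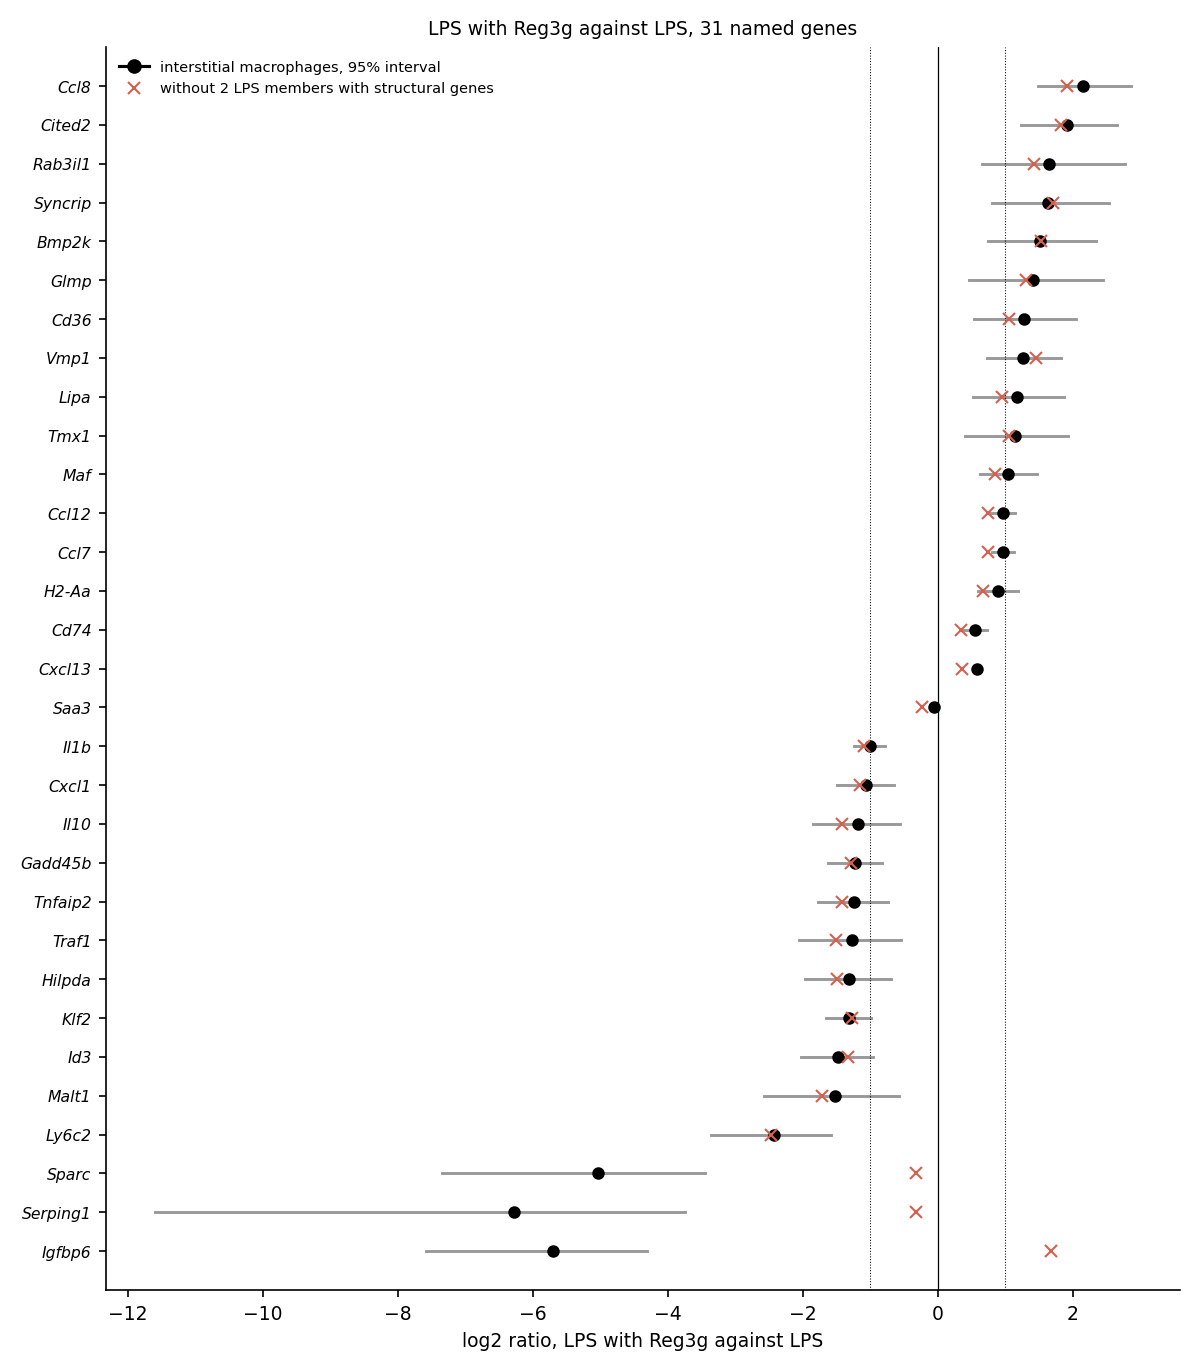
Log2 ratio of LPS with Reg3g over LPS for genes named in the text or chosen by the same rule, in all interstitial macrophages (black circles with 95% intervals of counting error) and without the 2 LPS cells that carry structural genes (red crosses); dotted lines mark 2-fold. Ccl8 lies at 2.14 and 1.92, while Sparc, Serping1 and Igfbp6 lie between -6.27 and -5.04 only when the 2 cells are kept.

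**Figure D5:**
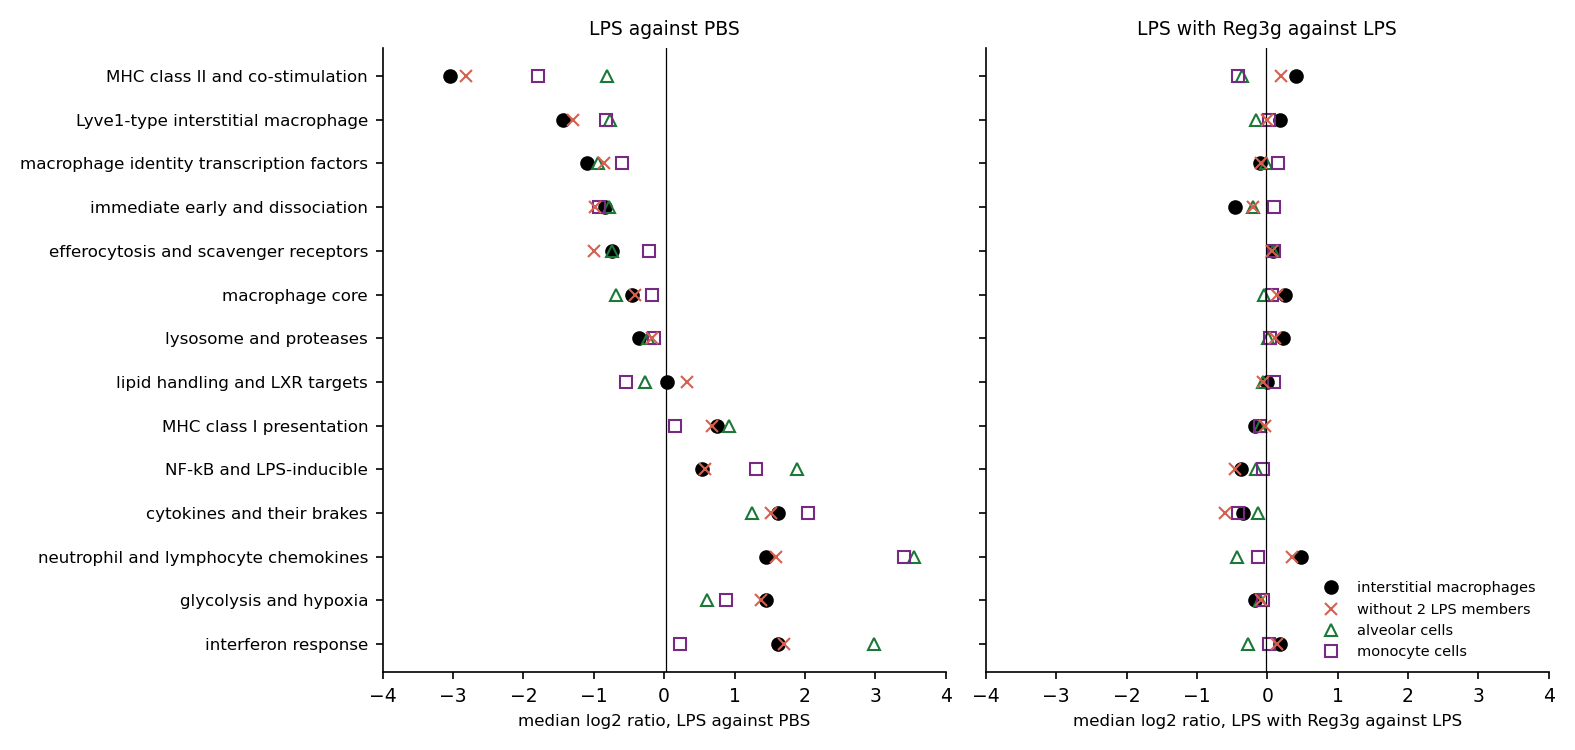
Median log2 ratio of 14 gene lists over their measured genes, marker lists of other cell types not being drawn, for LPS over PBS (left) and LPS with Reg3g over LPS (right), in interstitial macrophages (black circles), in interstitial macrophages without the 2 LPS cells that carry structural genes (red crosses), and for the same genes in alveolar cells (triangles) and monocyte cells (squares); the line is the median over all measured genes. For LPS over PBS the MHC class II list has a median of -3.04 and the interferon list 1.62, whereas the medians drawn on the right lie within 0.7 of 0.

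Interstitial macrophages also varied among themselves. Members with a UMI of Lyve1, Timd4, Cbr2 or Fcna, called Lyve1-type here, numbered 30 of 67 (44.8%) in the LPS with Reg3g library, 23 of 69 (33.3%) in the LPS library and 99 of 203 (48.8%) in the PBS library. After thinning to 2000 UMIs the shares were 29.0% (18.2 to 41.9), 22.8% (12.7 to 35.8) and 35.1% (28.0 to 42.7), with overlapping intervals. In PBS cells several other genes differed between Lyve1-type cells and the rest. Ltc4s, which makes leukotriene C4, stood at 284 CPM in Lyve1-type cells and 75.6 CPM in the others, Clec10a, a lectin, at 276 and 85.4 CPM, and Ccl8 at 524 and 171 CPM. Mgl2 and Selenop differed less, at 709 and 580 CPM and at 2755 and 1934 CPM. In the other direction H2-Aa stood at 7042 CPM in Lyve1-type cells and 10977 CPM in the others, and Mmp12, the macrophage elastase, at 0 and 134 CPM, the last being 55 UMIs. Folr2, which the rule used, stood at 625 and 161 CPM.

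Class II was low in both kinds of cell after LPS. H2-Aa stood at 667 CPM in Lyve1-type and 915 CPM in other cells of the LPS with Reg3g library, and at 275 and 579 CPM in those of the LPS library. Saa3 stood at 14637 and 20870 CPM in Lyve1-type and other cells of the LPS with Reg3g library and at 19864 and 17996 CPM in those of the LPS library. Ccl8 stood at 268 and 340 CPM with Reg3g and LPS and at 96.0 and 46.4 CPM with LPS alone, so it was higher with Reg3g in both kinds. Cells with at least 10 Cxcl13 UMIs were Lyve1-type in 54.5%, 31.6% and 52.4% of cases (LPS with Reg3g, LPS, PBS), against 40.9%, 32.6% and 47.9% of cells with no Cxcl13 UMI.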

How the data were processed

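Counts of UMIs per gene and barcode were used as deposited, as filtered 10x matrices of 55357 features for 3 libraries, per the file headers. Cell Ranger 9.0.1, bcl2fastq 5.0.1 and Seurat 4.4.0, with mm10 as build, are named by the submitters' processing notes, without their order; which annotation was used is not given in the sources used. The depth of each library is given with the results.

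Cells were filtered and chosen by the stated rule, UMIs were summed over the chosen cells of each library and divided by their total (CPM), and log2 ratios were given exact conditional binomial intervals and shares exact Clopper-Pearson intervals (Python 3.11.15, scipy 1.17.1). A count of 0 was replaced by 3 counts per library and gave a bound. A gene was measured where either library reached 50 CPM, and a difference of at least 2-fold was counted; no p-value was computed. List counts leave out the 16 genes of the rule. Alternatives changed the cell filter, the rule, doublet removal with Scrublet in scanpy 1.11.5, thinning, scaling and the CPM minimum. The ratio and its interval were tried on simulated counts drawn from counting error alone, the error that the interval assumes. The simulation left out the clustering of UMIs in single cells, so it does not test the intervals for that.

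Genes named were the 12 highest and 12 lowest ratios at 100 CPM or more (leaving out genes of the rule, ribosomal, mitochondrial and predicted genes, and possible carry-over), up to 4 of each list, the marker lists, and Reg3g and Extl3. The members, lists and genes were chosen with earlier results of these data known. Promoter sequences are from RefSeq, build GRCm38.p6; 4 of the genes named are shown.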

Additional observations from a re-analysis of the deposited data

Results flagged for a closer look

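Several genes had ratios of at least 2-fold in opposite directions in interstitial macrophages and in another cell population of the same libraries, with counting intervals on either side of 0; the differences between populations were not tested. For LPS over PBS, Id3 had a log2 ratio of 2.18 in interstitial macrophages against -1.45 in alveolar cells. Csf1r had -1.71 against 1.20 and Pf4 -1.47 against 2.19 in the same populations. For LPS with Reg3g over LPS, Ccl8 had 2.14 in interstitial macrophages, against -2.07 in alveolar cells and -3.73 in monocyte cells, where it was nearly absent. Igfbp6 had -5.69 in interstitial macrophages against 1.18 in monocyte cells, a value that became 1.67 without the 2 LPS cells that carry structural genes.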

How the results depend on the processing

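No paired analysis was possible because each group is 1 library. The share of interstitial macrophages was 0.321% (LPS with Reg3g), 0.159% (LPS) and 1.43% (PBS) when at least 3 of the 5 genes were asked for, 0.410%, 0.303% and 1.55% when cells were thinned to 2000 UMIs, and 1.86% in PBS when Folr2 or Cd163 had to be among the genes. For LPS over PBS, a minimum of 20 CPM gave 1079 genes at least 2-fold higher and 1203 lower, and one of 200 CPM gave 206 and 135. For LPS with Reg3g over LPS, the counts higher and lower were 387 and 703 at 20 CPM, 6 and 37 at 200 CPM, 311 and 500 with at least 3 of the 5 genes, 649 and 685 after thinning (862 and 754 for LPS over PBS), and 143 and 147 without members with 2 monocyte genes. Leaving out the 2 LPS cells with structural genes, chosen after the data were seen, left 150 lower. The cause of these shifts was not tested beyond the smaller number of cells, UMIs or genes that each setting leaves. The direction turned for Igfbp6 (LPS with Reg3g over LPS), to 1.76 with Folr2 or Cd163, 1.10 without members with monocyte genes, 1.67 without the 2 cells and 1.23 without members over 10000 UMIs, and for Fcna, to 3.46 without members over 10000 UMIs, the cell holding most of its UMIs being among them. Over all alternatives for named genes, 1369 were close to the first value, 281 lay outside its counting interval, and 5 were the turns just named. Another 8 ratios, all under 2-fold at first, changed sign in 20 alternatives together, among them Lcn2 (LPS with Reg3g over LPS), which turned to 0.04 with no UMI of the 3 alveolar genes, 0.34 without members with monocyte genes, 1.07 after thinning, 0.70 without members over 10000 UMIs and 0.26 with cells scaled alike. With 67 and 69 cells, differences of single genes near 50 CPM lie within counting error.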
